A study of Mus musculus with 10 samples.

Results

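The nuclear genes of the mitochondrial respiratory chain and ATP synthase were followed in sorted haematopoietic cells, fused and unfused, that had been grafted into the midbrain of MPTP-treated mice. A gene was taken by its name on the array: the Nduf families A, B, C, S and V, the Uqcr genes, the Cox4i, Cox5, Cox6, Cox7 and Cox8 genes, the Atp5 genes and Sdha to Sdhd. This gave 83 of the 34832 genes and unnamed transcripts of the array, read by 122 probes. They comprised 36 genes of complex I, 4 of complex II, 8 of complex III, 18 of complex IV and 17 of complex V. Of these, 54 had 1 probe, and for the other 29 the probe with the highest mean signal over the 10 arrays stood for the gene. Ndufa8, Ndufs5 and Sdha were well above background on fewer than 2 arrays and were not tested, which left 80 genes.

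All mice had received MPTP. Lineage-negative bone marrow cells, the haematopoietic stem and progenitor cells or HSPCs, were placed on one side of the midbrain 3 days after the MPTP course ended. Cells were dissociated and sorted 1 week after grafting. In the R26Y model, HSPCs carrying Cre and red fluorescent protein (RFP) went into R26Y mice, so that fusion with any host cell could switch on yellow fluorescence (YFP). In the GFAP-Cre and FoxA2-Cre models, R26Y HSPCs went into hosts with Cre, so that YFP marked fusion with host cells in which the GFAP or Foxa2 promoter had driven Cre. Red cells without YFP were sorted as unfused; in the Cre hosts these could include graft cells fused with a host cell without Cre. There were 5 groups of 2 replicates: R26Y hybrids, GFAP-Cre hybrids, a pool of the unfused cells of the R26Y and GFAP-Cre models (pooled unfused), FoxA2-Cre hybrids and FoxA2-Cre unfused cells. Each replicate was a pool from 2 mice, so p-values measure the spread between 2 pools per group. Ages and the rest of the genetic background are not given in the sources used here.

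The respiratory chain passes electrons from NADH (complex I) and succinate (complex II) through ubiquinone to complex III, then through cytochrome c to complex IV and oxygen, and the proton gradient built on the way drives ATP synthase (complex V). MPTP is converted in the brain, largely in astrocytes, to MPP+, which dopaminergic neurons take up and which inhibits complex I near its ubiquinone site. Complex IV and the c-ring of ATP synthase have subunits with several genes: Cox4i1 is the ubiquitous and Cox4i2 the oxygen-responsive, largely lung form of subunit 4, and Atp5g1, Atp5g2 and Atp5g3 all encode the same c-ring protein.

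The sequence of the probe that reads the gene with the clearest difference (Cox4i1) is given first, with a stretch of the Atp5g1 probe, whose letters bear on how its signal is read. Both are in mm9 coordinates of the array annotation and written on the sense strand. The Cox4i1 probe lies at chr8:123197924-123197983 on the plus strand. The Atp5g1 stretch is bases 26 to 55 of the probe at chr11:95930317-95930376, minus strand, and its capitals mark 12 letters that also occur in the probes of 4 other tested genes (9630010G10Rik, BB094273, BC030870 and Naip5).
Cox4i1: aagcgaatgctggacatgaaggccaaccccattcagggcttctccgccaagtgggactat
Atp5g1: ctggcgagtTGGCTCAGTGGTtaagagcgc
No run of 20 bases in the Cox4i1 probe recurred in another gene's probe. Letters like the capitals above are found near the start of rodent B2 repeats, as background. Of the 4 other genes sharing them, 3 had a mean level above the 75th percentile of the array, as did Atp5g1 and 6.94% of all genes tested, so the Atp5g1 signal may not come from Atp5g1 RNA alone; this was not tested.

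Levels are log2 processed signals centred on each array's own 75th percentile, taken over the 9510 spots well above background on all 10 arrays, so 0 is a bright spot and a step of 1 is 2-fold. Levels of different genes come from different probes, so their order is not one of RNA amount. The R26Y, GFAP-Cre and pooled unfused samples shared slide 1 and the FoxA2-Cre samples slide 2, so the recipient model, the slide and its scan cannot be told apart, and comparisons were made within a slide. The share of spots well above background was 64.3% to 86.7% on slide 1 and 19.8% to 49.2% on slide 2. Row 1 of slide 2 held both hybrid arrays and row 2 both unfused ones. R26Y hybrid 2 stood apart from the other slide 1 arrays: 3.23% of all genes were over 4-fold above and 13.2% over 4-fold below every one of them, against at most 0.225% in either direction on any other slide 1 array. Of the 7 HSPC markers on the array, 6 were well above background on each slide 1 array, 2 on each FoxA2-Cre hybrid array and 3 on each FoxA2-Cre unfused array. Flt3 and Ptprc (the leukocyte antigen CD45) were so on all 10 arrays and Gata2 on none, and Kit, Cd34, Meis1 and Runx1 were at background on both FoxA2-Cre hybrid arrays. Of 9 astrocyte markers, 4 to 7 were above background on slide 1 arrays and 2 to 4 on FoxA2-Cre arrays; Aqp4 was so on all 10, and Gfap on every slide 1 array and no FoxA2-Cre array. Of 9 dopaminergic neuron markers, 6 to 8 were above background on slide 1 arrays, 2 to 5 on FoxA2-Cre hybrid arrays and 4 to 6 on FoxA2-Cre unfused arrays. Th, the rate-limiting enzyme of dopamine synthesis, was so on all 10, En1 on none, and Foxa2 on every array but the FoxA2-Cre hybrids, where Slc6a3 and Slc18a2 were also at background.

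More respiratory chain genes were detected on each slide 1 array than on any slide 2 array. Of the 83 genes, each pooled unfused array detected 76 well above background, the GFAP-Cre hybrids 71 and 72, and the R26Y hybrids 72 and 57. The FoxA2-Cre unfused arrays detected 52 and 32, and the FoxA2-Cre hybrid arrays 34 and 19. These shares, 22.9% to 91.6%, followed those over all genes, 26.2% to 89.6%. All 18 complex IV genes were above background on every slide 1 array except R26Y hybrid 2, which had 14. Complex III had a larger share than complex IV on that array (87.5% against 77.8%). The same was so on FoxA2-Cre hybrid 1 (62.5% against 44.4%) and hybrid 2 (37.5% against 27.8%). Between the FoxA2-Cre groups complex IV showed the largest gap: 12 of its 18 genes were detected on both unfused arrays and 4 on both hybrid arrays. These counts were 8 and 6 of 36 in complex I, 1 and 1 of 4 in complex II, 2 and 3 of 8 in complex III and 7 and 3 of 17 in complex V. Over all genes the share detected was also lower in hybrids, at 42.3% and 26.2% of single arrays against 57.2% and 42.9% in unfused cells. The share of all genes detected on both arrays of a group is not given here.

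**Figure D1:**
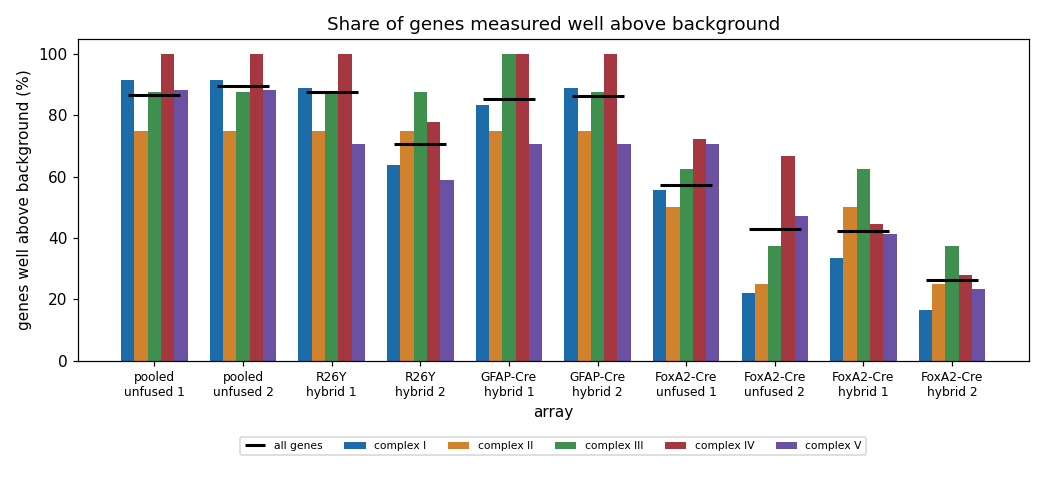
Percent of the genes of each complex (coloured bars) that were well above background on each of the 10 arrays (x axis), with the percent over all genes on that array as a black line. Complex IV is at 100% on 5 of the 6 slide 1 arrays and at 77.8% on R26Y hybrid 2, and the bars are lower on the 4 FoxA2-Cre arrays, down to 16.7% for complex I in FoxA2-Cre hybrid 2.

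Only 15 of the 83 genes were above background on all 10 arrays. A set of 7 genes was above background on all 6 arrays of slide 1 and on none of slide 2: Cox8b, Ndufa1, Ndufa2, Ndufb3, Ndufs1, Uqcr10 and Uqcrc1. This was true of 8.43% of all genes. No respiratory chain gene showed the reverse, and neither did any gene of the array (0%). Ndufa1, a small accessory subunit of the membrane arm of complex I, had levels of −1.01 and 1.53 in R26Y hybrids, −0.46 and −0.62 in GFAP-Cre hybrids and −1.04 and −0.90 in pooled unfused cells, but −6.50 and −5.70 in FoxA2-Cre hybrids and −7.27 and −6.53 in FoxA2-Cre unfused cells. Every slide 1 value lay far above every slide 2 value.

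**Figure D2:**
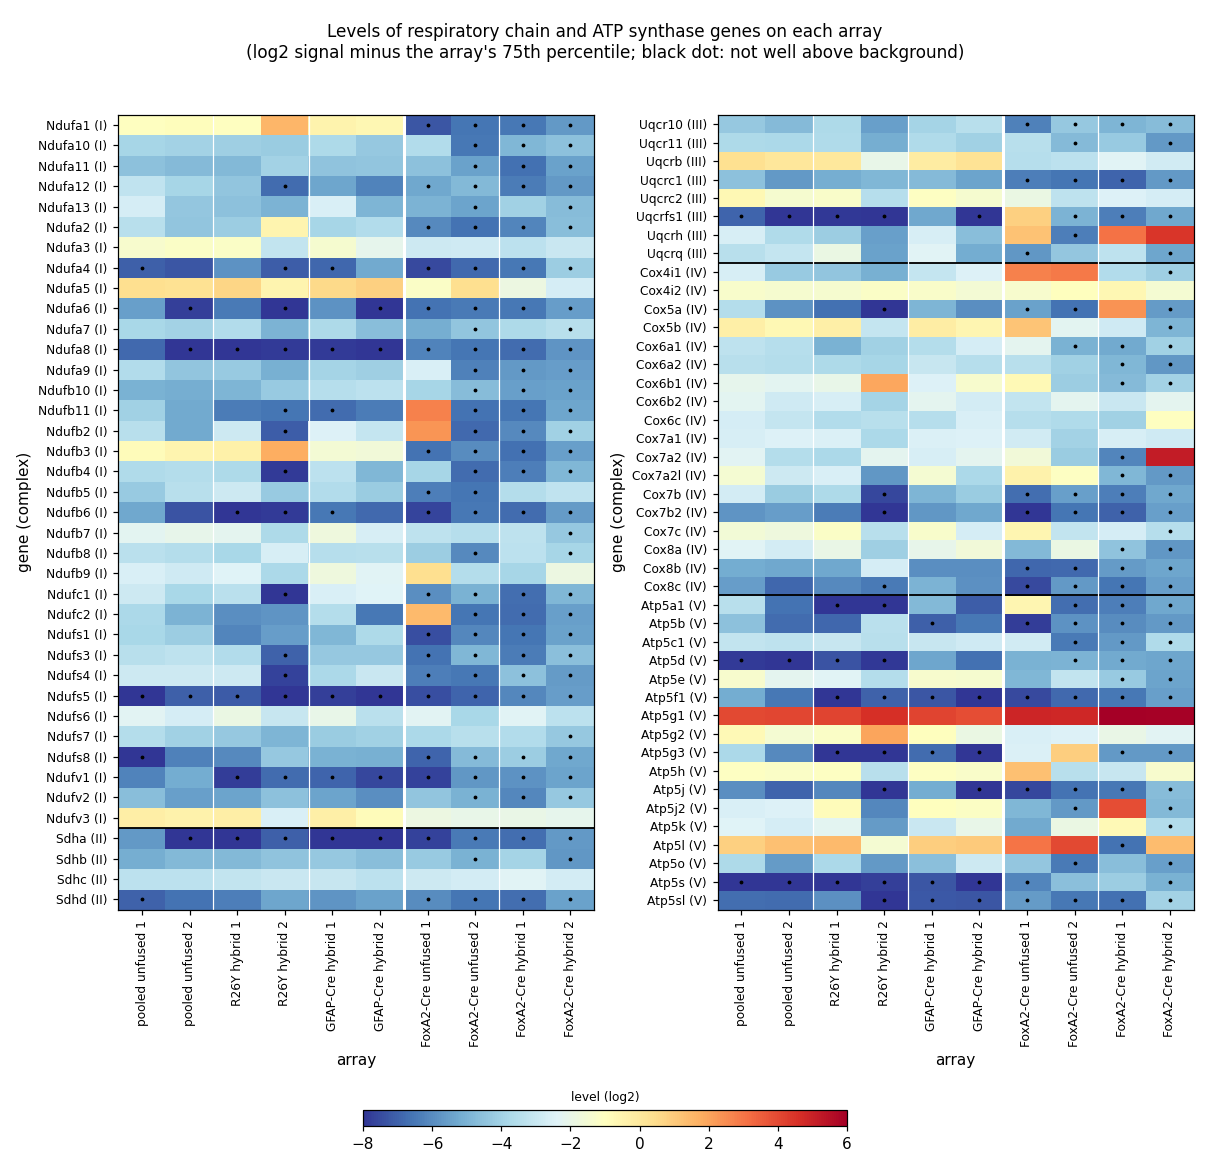
Levels of the respiratory chain and ATP synthase genes (rows, by complex and then by name) on each of the 10 arrays (columns, by group), as log2 signal relative to the array's 75th percentile, with a black dot where it was not well above background. Many genes are dim on the 4 FoxA2-Cre arrays, and Cox4i1 is bright on the 2 FoxA2-Cre unfused arrays only.

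Probe signals spanned a wide range in each complex. At the upper end of the mean levels over the 10 arrays were Ndufa5 (−0.31) and Ndufv3 (−1.26) in complex I, Sdhc (−2.99) and Sdhb (−4.71) in complex II, Uqcrb (−1.34) and Uqcrc2 (−1.97) in complex III, Cox4i2 (−1.25) and Cox5b (−1.41) in complex IV, and Atp5g1 (4.66) and Atp5l (0.57) in complex V. At the lower end were Ndufa8 (−7.42) and Ndufs5 (−7.50), Sdhd (−6.13) and Sdha (−7.60), Uqcrc1 (−5.58) and Uqcrfs1 (−6.20), Cox8c (−6.10) and Cox7b2 (−6.41), and Atp5f1 (−6.97) and Atp5s (−7.13). These are ends of probe signal and place no gene's RNA above another's. Sdha, the flavoprotein of complex II, ranged from −9.60 to −5.69 and was above background on 1 array, so no comparison of it was possible. The Cox5b and Atp5l probes, with those of Atp5j2 and Atp5k, are annotated on another chromosome than the gene, and for 11 of the 80 tested genes a run of 20 probe bases recurs in another gene's probe (13.8%, against 9.08% over all genes tested).

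The first comparison asked how FoxA2-Cre hybrids differed from unfused cells of the same hosts. Cox4i1, the ubiquitous form of an early-assembled complex IV subunit through which ATP regulates the enzyme, was far lower in the hybrids and was the 1 respiratory chain gene past the threshold of 0.05. Its levels were −3.58 and −4.11 in the hybrids and 2.75 and 2.93 in the unfused cells, with hybrid 2 not above background. The groups were far apart and the replicates of each lay close together. Cox4i1 fell by 6.69 ± 0.67 (SE) on the log2 scale (adjusted p = 0.00897, limma with Benjamini-Hochberg adjustment over 31962 genes). That is 103-fold on the measured signal, but hybrid 2 lay below the lowest signal well above background on its array (−3.47). The fold is therefore not exact. The background was 0.541% of all genes past this threshold, 0.488% lower (156 genes) and 0.0532% higher (17 genes), so 1 of 80 is within 1 gene of that share. In the other groups Cox4i1 had mean levels of −4.76 ± 0.47 (SD, n = 2) in R26Y hybrids, −2.80 ± 0.47 in GFAP-Cre hybrids and −3.43 ± 1.15 in pooled unfused cells. The FoxA2-Cre hybrids, at −3.85 ± 0.37, lay among these, and the FoxA2-Cre unfused cells, at 2.84 ± 0.12, lay above all of them. Its paralog Cox4i2 differed by 0.12 ± 0.51 in the same comparison (unadjusted p = 0.826, limma), with hybrid levels of −0.63 and −1.44 and unfused levels of −1.35 and −0.96, which overlapped.

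The Cox4i1 difference rests on 1 probe and on 2 arrays per group. It was between −6.95 and −6.42 when each FoxA2-Cre array was left out in turn and −4.52 to −5.65 with another background correction, quantile scaling or the authors' values. The call was lost with array weights (adjusted p = 0.116, limma), with the 4 FoxA2-Cre arrays alone (0.134), and with the slide column (0.335) or slide row (−6.03, adjusted p = 0.167) as a block, while its adjusted p was 0.00558 to 0.0377 in the other alternatives. Row and group coincide on slide 2 and cannot be told apart there.

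**Figure D3:**
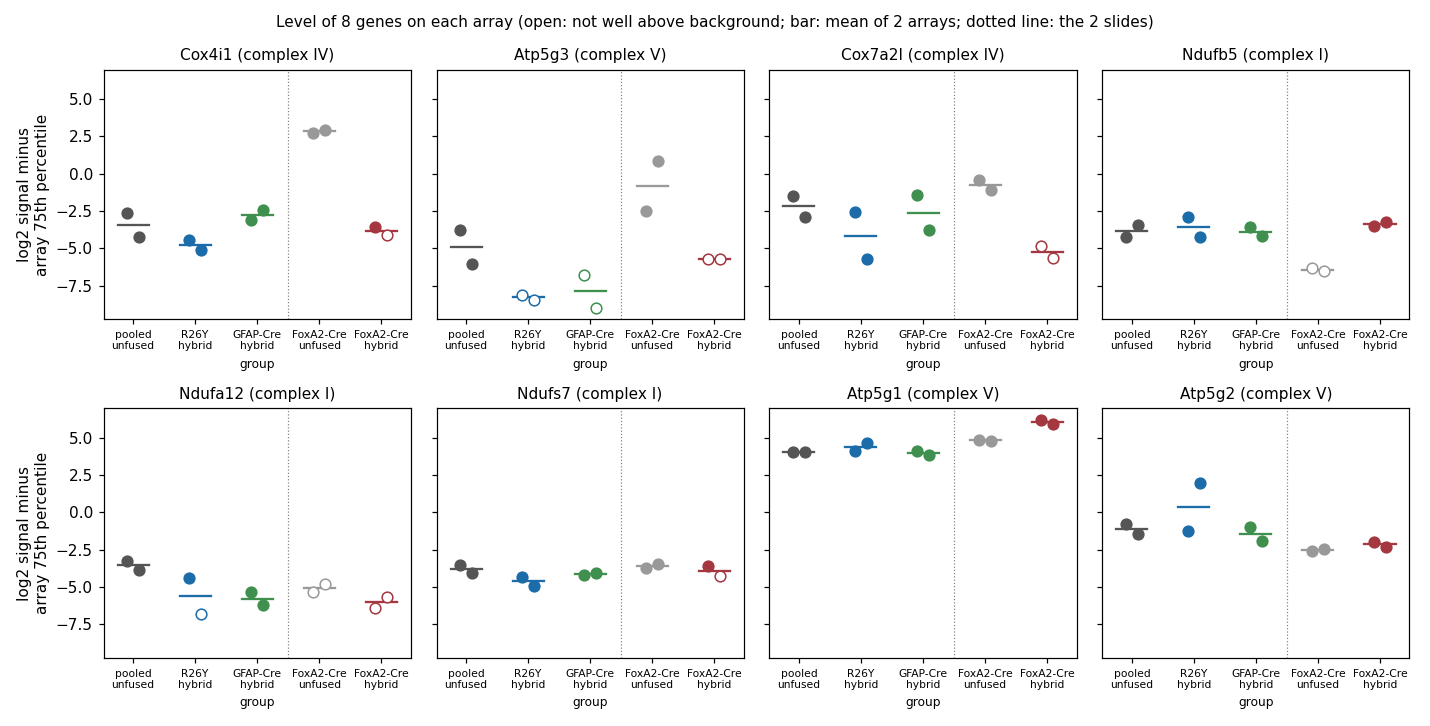
Levels of single genes on all 10 arrays by group (points are arrays, bars are means of 2), as log2 signal relative to the array's 75th percentile; open points were not well above background. Cox4i1 is at 2.75 and 2.93 in FoxA2-Cre unfused cells and below −2.4 on the other 8 arrays, and Atp5g3 is above background in the 4 unfused samples and in none of the 6 hybrid samples.

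The other respiratory chain genes lay on both sides of 0 in the FoxA2-Cre comparison. Of 80 genes, 35 were on the lower side and 45 on the higher side in hybrids, with a median difference of 0.20 against 0.36 over all genes. At an unadjusted p under 0.05 there were 8 lower and 3 higher, where the whole array had 8.67% in either direction. The hybrid and unfused values did not overlap for 13 genes lower and 16 higher, against 10.6% and 26.5% of all genes. The median itself was −0.04 without hybrid 2, 0.05 without unfused 2 and −0.17 with quantile scaling. Relative to all genes it was −0.16, between −0.28 and −0.03 in 4 other scalings, −0.41 with slide row as a block and −0.47 without unfused 2, where 18 genes had an unadjusted p under 0.05. FoxA2-Cre unfused 1 was over 4-fold above each other slide 2 array for 11 of the 80 genes, against 4.37% of all genes; for the other 3 arrays these were 2 or 3 genes. By complex the median was 0.05 in complex I (17 of 34 lower), 0.19 in complex II (1 of 3), 0.32 in complex III (2 of 8), 0.10 in complex IV (8 of 18) and 0.39 in complex V (7 of 17).

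Within complex IV the ubiquitous and the tissue-restricted isoforms had different medians. The 10 ubiquitous subunit genes had a median difference of −1.11 with 6 lower, and the 7 tissue-restricted isoform genes a median of 0.56 with 1 lower; these lists were compared by description only. The second median is that of Cox8c, and Cox8c, Cox8b and Cox7b2 were above background on none of the 4 FoxA2-Cre arrays, so it rests on background values; among the ubiquitous genes this was so of Cox7b. Cox7a2l, which helps join complexes III and IV into supercomplexes, had hybrid levels of −4.85 and −5.65, neither above background, and unfused levels of −0.42 and −1.09. It was thus at least 10.6-fold lower in hybrids on this scale, with a fitted difference of −4.50 ± 1.19 (adjusted p = 0.311, limma), but −1.44 with normexp and −2.39 with the authors' values. Of the other Cox7a2l probes, one differed by −5.64 and the other by 0.04. Cox5b differed by −3.37 ± 1.32, and Cox6a2, the heart and muscle form of subunit 6a and above background on neither hybrid array, was at least 1.35-fold lower on this scale, both short of the adjusted threshold (0.540 and 0.475, limma). The sign for Cox6a2 turned with normexp, so its bound does not hold there.

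In complex V, Atp5g3 was above background in both unfused arrays, at −2.50 and 0.86, and in neither hybrid array, at −5.69 and −5.70, so it was at least 10.7-fold lower in hybrids on this scale. Its fitted difference was −4.87 ± 1.27 (adjusted p = 0.302, limma), but −1.72 with normexp background correction and −2.64 with the authors' values, both smaller than that bound, and −3.19 or −6.55 when an unfused array was left out. Atp5g1 was higher in both hybrid arrays, at 6.21 and 5.93 against 4.85 and 4.81, with a difference of 1.24 ± 0.47 (adjusted p = 0.527), and Atp5g2 differed by 0.39. The 3 genes for the same c-ring protein were therefore not of one direction in this comparison. Atp5g3 passed the filter only through the 4 unfused arrays, so its direction here is not independent of the filter. Atp5l, a small membrane subunit, differed by −6.09 ± 2.22 (adjusted p = 0.509), but its hybrid levels were −6.58 and 1.38, so hybrid 1 carried most of that. All 6 Atp5l probes were lower in the hybrids, with differences of −9.81 to −3.12. Most of them overlap in position on chromosome 9 and share bases with other genes' probes, so they are not independent. At the level of single probes the one at −9.81 passed (adjusted p = 0.0399, limma over 49896 probes). It was at −6.60 and −5.57 in the hybrids, above background on neither array, so background sets the size of its difference. The share of all probes past the threshold is not given here.

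In complexes I and III the smallest p-values were for higher levels in hybrids. Ndufb5, an accessory subunit of the membrane arm, was at −3.52 and −3.21 in hybrids and at −6.34 and −6.55 in unfused cells, where it was not above background, so it was at least 4.22-fold higher in hybrids on this scale. The fitted difference was 3.08 ± 0.63 (adjusted p = 0.140, limma), with 1.31 under normexp and 0.77 in the authors' values. Uqcrh, the hinge protein of complex III next to cytochrome c1, was at 3.10 and 4.42 in hybrids and at 1.21 and −6.36 in unfused cells, so its difference of 6.33 ± 2.12 (adjusted p = 0.463) rests largely on unfused 2. The other genes of smallest p on the higher side were Ndufb8 (1.48 ± 0.74), above background on 1 array of each group, and Ndufa4, now assigned to complex IV, which was above background on none of the 4 arrays and so has no measured difference. Ndufa5 (−1.83 ± 0.71) and Ndufb10 had an unadjusted p under 0.05 in the lower direction. The other Ndufa5 probe went the other way, at −3.73 and −5.62 in hybrids and −7.58 and −5.37 in unfused cells. It was above background on 1 hybrid array and no unfused one. Ndufb10 was above background on 1 unfused array only, and no fold is given for it.

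Detection of markers of other cells differed between the FoxA2-Cre groups. Of 15 neutrophil genes, 3 to 5 were above background in hybrids and 8 to 10 in unfused cells, and Mpo, the myeloperoxidase of granules, was among those at background in both hybrid arrays. Their summed scaled signal, a sum over different probes, was 167 to 207 in hybrids and 138 to 165 in unfused cells, but most of it was the receptor gene Csf3r (165 to 206 and 92.5 to 135). Without Csf3r the sums were 1.43 to 1.51 in hybrids and 29.4 to 45.3 in unfused cells, the opposite direction. Of 12 microglial genes, 5 to 9 were above background in hybrids and 7 to 9 in unfused cells. Their summed signals were 100.3 to 189 and 28.1 to 30.6 (74.3 to 158 and 14.1 to 17.6 without Siglech). Cx3cr1 and Trem2 were brighter than Siglech on FoxA2-Cre hybrid 2 and carried most of its sum without Siglech. The higher microglial sums in hybrids therefore rest on a few genes. The genes of cytosolic ribosomal proteins had a median difference of −1.94 in hybrids (58 of 83 lower), and 6 passed the threshold, all lower: Rpl10, Rpl31, Rpl9, Rps23, Rps27a and Rps28. The part of these cells and of the fewer spots above background in the respiratory chain differences was not tested. In sorted bulk samples, fewer cells of a type and less RNA per cell cannot be told apart.

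**Figure D4:**
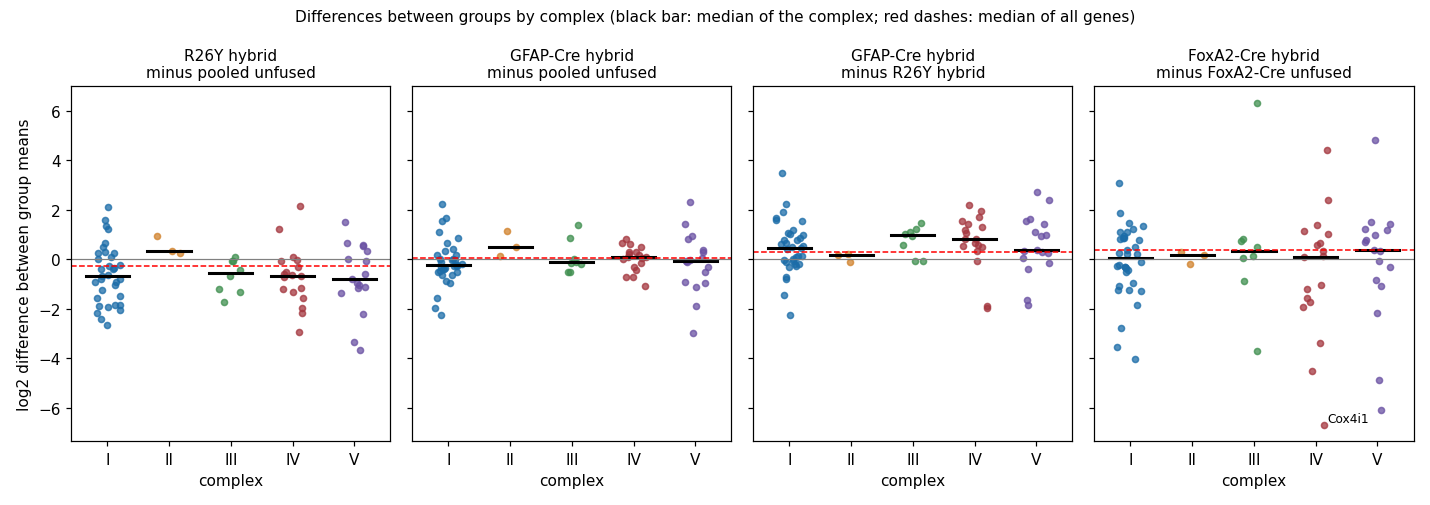
Log2 difference of each of the 80 tested genes in the 4 comparisons within a slide (1 panel each; points are genes grouped by complex, black bars the median of a complex, red dashes the median of all genes). Medians lie below 0 in complexes I, III, IV and V in R26Y hybrids minus pooled unfused cells, and Cox4i1 in the FoxA2-Cre comparison, at −6.69, is the 1 gene past the adjusted threshold.

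The second comparison set R26Y hybrids against the pooled unfused cells of slide 1. No respiratory chain gene passed the threshold, and no gene of the array did (0%; 1.37% had an unadjusted p under 0.05 by limma). Of 80 genes, 57 were on the lower side, with a median difference of −0.65 against −0.26 over all genes. Hybrid and unfused values did not overlap for 24 genes lower and 7 higher, against 19.5% and 10.5% of all genes. Complex medians were −0.66 in complex I (23 of 34 lower), 0.33 in complex II (0 of 3), −0.55 in complex III (7 of 8), −0.66 in complex IV (15 of 18) and −0.80 in complex V (12 of 17). This shift depended on R26Y hybrid 2: without it the median was −0.04 (0.02 over all genes), and without R26Y hybrid 1 it was −1.14 (−0.53). The median relative to all genes was −0.39, and −0.11 to −0.39 in 4 other scalings. Cytosolic ribosomal protein genes had a median of −0.79 in the same comparison.

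The 5 genes with an unadjusted p under 0.05 were all lower, and none passed the adjusted threshold (0.9996 in each case, limma). Atp5g3 was at −8.10 and −8.43 in R26Y hybrids, neither above background, and at −3.75 and −6.08 in pooled unfused cells, both above it; it was at least 3.89-fold lower on this scale, with a fitted difference of −3.35 ± 1.27. The difference was −0.66 with normexp background correction, −0.98 with the authors' values, −1.57 with slide column as a block, −2.01 with quantile scaling and −2.19 without pooled unfused 1, so the bound does not hold under the first 3 of these. Atp5g3 passed the filter only through the 4 unfused arrays, so its direction here is not independent of the filter. Ndufs1, the largest iron-sulphur subunit of complex I, was at −6.15 and −5.56 against −3.82 and −4.17, without overlap, and differed by −1.86 ± 0.71. Ndufa12 was at −4.40 and −6.77 against −3.22 and −3.86 and differed by −2.05 ± 0.83. Atp5f1, the peripheral stalk subunit b of ATP synthase, was at least 2.03-fold lower in R26Y hybrids. It was above background on, and passed the filter through, the 2 pooled unfused arrays only, so its lower direction carries no weight of its own. Ndufb6, above background on those arrays and on 1 GFAP-Cre hybrid array, was at least 1.48-fold lower. Both bounds are larger than the differences with normexp (−0.24 and −0.19) and with the authors' values (−0.37 and −0.31).

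On the higher side the smallest p-values belonged to Ndufs8 (2.12 ± 1.03), Ndufb3 (1.35 ± 0.78), Atp5g2 (1.51 ± 0.98), Cox8b (1.23 ± 0.81) and Cox6b1 (2.16 ± 1.43). All 4 after Ndufs8 are among the 5 genes that were over 4-fold above every other slide 1 array in R26Y hybrid 2, against 3.23% of all genes. The fifth is Ndufa2. For Atp5g2 the R26Y levels were −1.21 and 1.98, with −0.78 and −1.46 in pooled unfused cells, so only R26Y hybrid 2 was high. A further 11 of the 80 genes were over 4-fold below all other slide 1 arrays in R26Y hybrid 2, close to the share of 13.2% over all genes. Among them were Ndufc1, Ndufs3, Ndufs4, Uqcrc2, Cox5b, Cox7b and Atp5l. Ndufs4, an accessory subunit whose loss causes a complex I deficiency in mice, was at −7.69 there and between −3.76 and −2.89 on the other slide 1 arrays. When R26Y hybrid 1 was left out, so that R26Y hybrid 2 stood alone for its group with the spread of the others, 6 respiratory chain genes and 2303 genes in all passed.

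The third comparison set GFAP-Cre hybrids against the same pooled unfused arrays, so the 2 comparisons share their controls. No gene passed (0%; 1.61% of all genes had an unadjusted p under 0.05, limma), and the median difference was −0.06, against 0.03 over all genes, with 45 of 80 lower. This median was 0.20 without GFAP-Cre hybrid 2 and 0.13 without pooled unfused 1. It was −0.12 without GFAP-Cre hybrid 1 and −0.20 without pooled unfused 2, so its sign depends on single arrays. Values did not overlap for 12 genes lower and 17 higher, against 14.4% and 19.9% of all genes. Complex I had a median of −0.23 with 23 of 34 lower, complex II 0.50 (0 of 3), complex III −0.13 (5 of 8), complex IV 0.09 (7 of 18) and complex V −0.07 (10 of 17). The 7 core subunits of complex I, which carry its redox centres, had a median of −0.41 with 6 lower.

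The genes with an unadjusted p under 0.05 were Atp5d and Ndufb10 on the higher side and Ndufa12 and Atp5g3 on the lower (adjusted p = 1.00 in each case, limma). Atp5d, the delta subunit of the F1 rotor, was at −5.32 and −6.67 in GFAP-Cre hybrids and at −7.87 and −8.73 in pooled unfused cells, where it was not above background. It was at least 2.78-fold higher on this scale, with a fitted difference of 2.30 ± 0.62 (0.63 under normexp and 0.60 in the authors' values, both smaller than that bound). Of its 3 arrays above background, 2 were GFAP-Cre hybrids and 1 was FoxA2-Cre unfused. It passed the filter only through these hybrids, so its higher direction and lack of overlap carry no weight of their own. Ndufb10 was at −3.50 and −3.31 in these hybrids and at −5.00 and −5.15 in the unfused cells, and differed by 1.67 ± 0.52. The values of neither gene overlapped between groups. Ndufa12 was at −5.34 and −6.23 and differed by −2.25 ± 0.83. Atp5g3 was at −6.76 and −8.99, neither above background, and was at least 4.11-fold lower on this scale; its difference of −2.96 was −0.92 under normexp, −1.09 in the authors' values and −1.80 without pooled unfused 1. Of the further genes of smallest p, Ndufs8 (2.24 ± 1.03), Sdhd (1.16 ± 0.63) and Ndufa4 (1.12 ± 0.93) were on the higher side, and Atp5f1 (at least 2.14-fold), Ndufv1 (at least 2.34-fold) and Ndufb3 (−0.90 ± 0.78) on the lower. Ndufa4 was above background on 1 array of each group. Atp5f1 and Ndufv1 passed the filter only through the 2 pooled unfused arrays, so their lower direction in hybrids carries no weight of its own. Atp5g3 passed it only through the 4 unfused arrays, so its direction here is not independent of the filter. The bounds for Atp5f1 and Ndufv1 are larger than their differences with normexp (−0.40 for both) and with the authors' values (−0.52 and −0.48).

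GFAP-Cre and R26Y hybrids were also set against each other on slide 1. No gene passed (0%; 2.73% of all genes with an unadjusted p under 0.05, limma). The median difference, GFAP-Cre minus R26Y, was 0.57 against 0.29 over all genes, with 21 of 80 lower, and it was 0.09 without R26Y hybrid 2. Values did not overlap for 3 genes lower and 16 higher, against 7.51% and 20.2% of all genes. Cox4i1 was at −3.13 and −2.47 in GFAP-Cre hybrids and −4.43 and −5.09 in R26Y hybrids, without overlap, a difference of 1.96 ± 0.67. Atp5d (at least 1.84-fold higher on this scale, at background in R26Y hybrids), Ndufb3 (−2.25 ± 0.78) and Cox8b (−1.95 ± 0.81) were the other genes with an unadjusted p under 0.05, and all 4 had an adjusted p of 0.9998 (limma). Atp5d passed the filter only through the GFAP-Cre hybrid arrays, so its higher direction carries no weight of its own. Ndufc1 (3.49), Ndufb10 (1.19) and Ndufs1 (1.60) followed on the higher side and Atp5g2 (−1.83), Cox6b1 (−1.88) and Atp5b (−1.65) on the lower. Without R26Y hybrid 1, 5 respiratory chain genes and 2169 genes in all passed.

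Whether the hybrid effect differed between the recipient sets was tested by the FoxA2-Cre difference minus the mean of the R26Y and GFAP-Cre differences. No respiratory chain gene passed, against 0.097% of all genes (31), 0.0845% lower and 0.0125% higher. The closest was Cox4i1, at −6.34 ± 0.88 (adjusted p = 0.0702, limma), with Ndufb10 (−2.30), Atp5d (−1.79), Cox6a2 (−1.50) and Cox7a2l (−3.30) next on that side. Of these, Cox4i1 was above background on 1 FoxA2-Cre hybrid array and the others on neither. Atp5d passed the filter only through the 2 GFAP-Cre hybrid arrays, so its place on that side carries no weight of its own. The signs of Cox6a2 and Atp5d turned with normexp. On the other side were Ndufb5 (2.96), Uqcrh (7.44) and Cox5a (6.23), with Ndufb5 and Cox5a at background on both FoxA2-Cre unfused arrays. Atp5f1 and Ndufv1 also had small p-values on that side, but were above background on the 2 pooled unfused arrays only, so their FoxA2-Cre differences are between background values and are not given. With the authors' values in place of the scanner signal Cox4i1 passed (−5.28, adjusted p = 0.0394, limma). Of the 80 genes, 2 on the lower and 4 on the higher side had an unadjusted p under 0.05, against 5.62% of all genes.

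Across both slides, all hybrids were set against all unfused samples, blocked on recipient set. No gene passed (0%; 3.13% with an unadjusted p under 0.05, limma). Atp5g3 had the smallest p of the respiratory chain genes, with a difference of −3.89 ± 0.79 (unadjusted p = 0.000677, adjusted p = 0.999). It was above background on all 4 unfused arrays, through which it passed the filter, and on none of the 6 hybrid arrays, so the size of the difference is set by background there: it was −1.19 with normexp and −1.72 with the authors' values. Every hybrid value lay below the unfused mean of its recipient set. The same held for Ndufa12, Ndufb11 and Ndufs7, so 4 of 80 genes were lower in 6 of 6 hybrid arrays, against 2.55% of all genes. Atp5g3 is among the 4 but passed the filter only through the unfused arrays, so its lower direction in hybrids carries no weight of its own. Ndufa4, Ndufs8 and Sdhc were higher in 6 of 6, against 3.61%; Ndufa4 was above background on 3 of the 10 arrays. Next to Atp5g3 the smallest p-values on the lower side were for Ndufa12 (−1.63 ± 0.52), Cox7a2l (−2.61 ± 0.93), Cox4i1 (−3.06 ± 1.16) and Ndufb11 (−2.81 ± 1.48). On the higher side they were for Ndufs8 (1.71 ± 0.63), Ndufb5 (1.39 ± 0.60), Ndufa4 (1.32 ± 0.57), Atp5g1 (0.61) and Sdhd (0.68). On the 4 FoxA2-Cre arrays, Ndufa12, Ndufa4, Ndufs8 and Sdhd were above background on none and Ndufb11 on 1 unfused array. Their order and differences there rest in whole or in part on background values.

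Among the core subunits of complex I, the complex that MPP+ is known to act on, Ndufs7 carries the last iron-sulphur cluster before ubiquinone. It lay between −4.91 and −3.45 on all 10 arrays, with differences of −0.80 to 0.48 in the 4 comparisons within a slide, and reached no unadjusted p under 0.05. Ndufs8, which carries 2 iron-sulphur clusters, was dim throughout, with pooled unfused levels of −8.28 and −6.28 and levels of −6.03 to −4.28 on the 4 hybrid arrays of slide 1.

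The other genes followed in every comparison gave no call. Uqcrc1, a core protein of complex III, differed by −0.08 to 0.14 in the 4 comparisons and was not above background on slide 2. Sdhc, a membrane anchor of complex II, lay between −3.33 and −2.34 on all 10 arrays, and its differences were −0.11 to 0.30. Atp5b, the catalytic subunit of ATP synthase, differed by −1.65 to 0.97, with R26Y hybrid 2 at −3.35 and R26Y hybrid 1 at −6.90. Cox4i2 differed by −0.09 to 0.12, Atp5g1 by −0.40 to 1.24 and Atp5g2 by −1.83 to 1.51. None of these passed the threshold in any comparison.

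**Figure D5:**
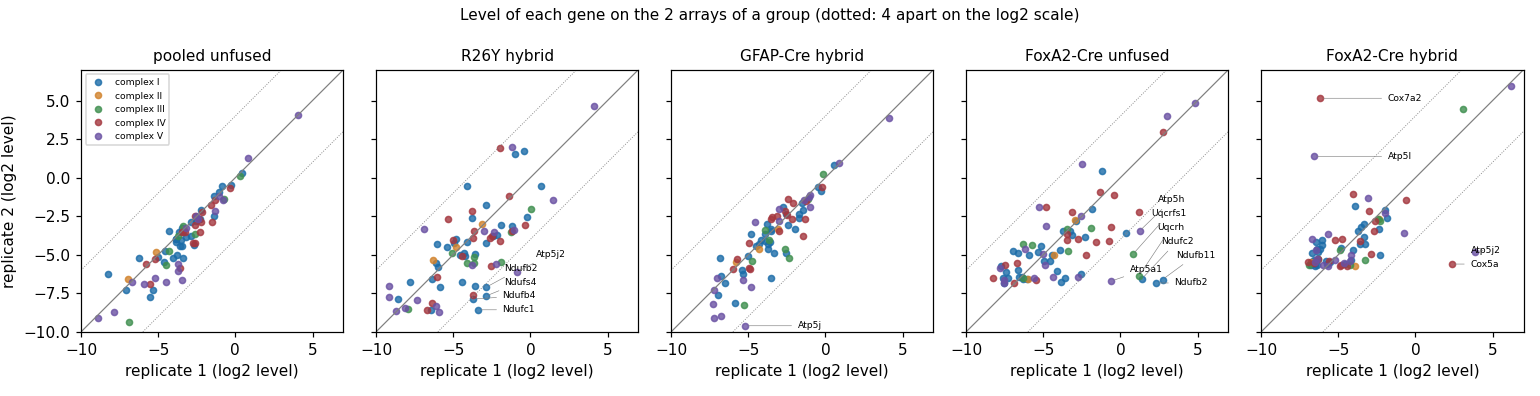
Level of each of the 80 tested genes on replicate 1 (x axis) and replicate 2 (y axis) in each of the 5 groups, as log2 signal relative to the array's 75th percentile, with dotted lines 4 log2 units from the diagonal. The points follow the diagonal in pooled unfused cells and GFAP-Cre hybrids and scatter widely in the FoxA2-Cre groups.

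Replicates of these genes agreed on slide 1 apart from R26Y hybrids, and less on slide 2. The median gap between the 2 replicates was 0.40 in pooled unfused cells, 0.59 in GFAP-Cre hybrids, 1.40 in R26Y hybrids, 1.05 in FoxA2-Cre hybrids and 1.13 in FoxA2-Cre unfused cells. Spearman's rho across the 80 genes, given as a description since genes are not independent, was 0.924, 0.890, 0.669, 0.511 and 0.498 in the same order. Gaps over 16-fold were seen in 0, 1, 5, 4 and 7 genes, against 0.125%, 0.854%, 8.87%, 3.90% and 5.79% of all genes. Ndufb11, an accessory subunit of complex I, was at 2.73 in FoxA2-Cre unfused 1 and −6.60 in unfused 2. Cox7a2, a ubiquitous complex IV subunit, was at −6.16 in FoxA2-Cre hybrid 1 and 5.15 in hybrid 2, and Cox5a at 2.36 in hybrid 1 and −5.60 in hybrid 2. The bright value of such a gene lay in either replicate of the FoxA2-Cre hybrids, and in unfused 1 for all 7 genes of the unfused cells. Other probes of the same gene did not always follow: of 28 genes with several tested probes, the probes differed in sign for 13 in the FoxA2-Cre comparison, 5 in the R26Y and 13 in the GFAP-Cre comparison with pooled unfused cells.

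The promoters of the 3 c-ring genes, whose differences did not share a direction in the FoxA2-Cre and R26Y comparisons but were all lower in the GFAP-Cre comparison with pooled unfused cells, were searched for the binding motifs of factors known to act on respiratory chain genes. The 100 bases before the start are given on the sense strand from RefSeq (GRCm38.p6, all on the minus strand): chr2:73911327-73911426 for Atp5g3, chr11:96075632-96075731 for Atp5g1 and chr15:102671048-102671147 for Atp5g2. Capitals mark the oestrogen-related receptor (ERR) motif TCAAGGTCA, found on the opposite strand, in Atp5g3, and the NRF-1 motif (GCGCA, any base, GCGC) in Atp5g2. The longer promoters searched also held an NRF-1 match in Atp5g3, 12 to 22 bases after the start, and an Sp1 match across the start of Atp5g2, while that of Atp5g1 had no match to any motif searched.
Atp5g3: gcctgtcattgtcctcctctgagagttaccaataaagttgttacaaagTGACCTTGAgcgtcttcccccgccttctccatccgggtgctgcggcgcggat
Atp5g1: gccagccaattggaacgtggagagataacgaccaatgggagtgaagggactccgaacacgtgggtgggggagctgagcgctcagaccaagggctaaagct
Atp5g2: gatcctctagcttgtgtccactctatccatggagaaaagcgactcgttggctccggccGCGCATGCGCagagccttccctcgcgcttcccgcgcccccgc
Of the 83 genes, 69 had a promoter in the RefSeq table, from 250 bases before to 50 after the start, and both strands were searched. The NRF-1 motif matched in 17 (24.6%, against 5.19% of 27025 genes), YY1 (AAGATGGCG) in 8 (11.6% against 1.64%) and the cAMP response element (TGACGTCA) in 4 (5.80% against 2.03%). The ETS motif CCGGAAGT matched in 5 (7.25% against 4.31%), the Sp1 motif GGGGCGGGG in 12 (17.4% against 12.9%), and the ERR motif in Atp5g3 and Sdhd (2.90% against 0.466%). The 14 tested genes with an NRF-1 match and the 52 without had median differences of −0.17 and −0.67 in the R26Y comparison, 0.04 and −0.10 in the GFAP-Cre comparison and 0.04 and 0.29 in the FoxA2-Cre comparison, given as a description. A match is a run of letters and not a shown binding site.

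Other mitochondrial and energy genes were taken from lists of assembly factors, electron carriers, biogenesis factors, the citric acid cycle, glycolysis, carriers and antioxidant enzymes. Of 112 genes on the array, 101 were tested, and none passed the threshold in the comparisons within a slide. In FoxA2-Cre hybrids 44 were lower, with a median of 0.18, and 6 lower and 3 higher had an unadjusted p under 0.05. The smallest p-values were for Ndufab1, the acyl carrier protein that is also a complex I subunit (−7.19 ± 1.30, adjusted p = 0.0865, limma), and Ldha, the lactate dehydrogenase subunit of glycolytic cells (−5.60 ± 1.27, adjusted p = 0.203). In R26Y hybrids 70 were lower, with a median of −0.32, and the smallest p was for Surf1, a complex IV assembly factor (−2.28 ± 0.66, adjusted p = 0.9996, limma). In GFAP-Cre hybrids 46 were lower, with a median of 0.04. Ppargc1a, Nrf1 and Tfam, which drive mitochondrial biogenesis, had FoxA2-Cre differences of −2.95 ± 2.67, 0.06 ± 0.65 and −1.07 ± 0.71, none past the threshold.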

How the data were processed

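The 10 arrays had 1 colour. RNA of sorted cells was amplified as whole-transcriptome cDNA, and 500 ng was labelled with Cy3, per the labels' protocols. Processed signal is a background-subtracted, detrended intensity from Agilent Feature Extraction 10.7.3.1 with mm9 annotation, per the file headers; well-above-background and outlier flags were deposited beside it. The authors' matrix holds log2 values with medians of 7.385 (slide 1) and 6.26 (slide 2) whose rank order follows background-subtracted intensity; its direction was so settled, and the tool and scaling behind it are not given in the sources used here. It served as an alternative.

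Outlier-flagged spots were dropped, spots of a probe averaged, and log2 intensities centred on the 75th percentile. Probes well above background on at least 2 arrays were kept; 66 genes were left out for flagged spots. One limma 3.58.1 model (R 4.3.3) over 5 groups and 31962 genes gave differences, standard errors and Benjamini-Hochberg adjusted p-values; the script was tested on simulated data. "At least" folds set the bright group's mean against the higher of the dim probe's signal and the lowest signal well above background on each array. The number of arrays limits the precision.

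The members and gene lists were chosen with earlier results of these data known. Named were fixed genes (c-ring paralogs, Ndufs7, Sdha, Uqcrc1, Cox4i1, Cox4i2, Atp5b), per comparison every gene past 0.05 and the 5 of smallest p in each direction, the 2 highest and 2 lowest per complex, and 2 per pathway list; further genes were named after their values were seen, and 1 gene's own values are not reported here. Replicate numbers are shared only as labels (correlations of deviations −0.0713 to 0.073). Probe accessions matched RefSeq symbols for 78 of 83 genes and other probes for 5; Atp5f1, Atp5s and Atp5sl are now Atp5pb, Dmac2l and Dmac2. Alternatives changed the background correction, scaling, filter, probe rule, blocks, weights and arrays.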

Additional observations from a re-analysis of the deposited data

How the results depend on the processing

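The number of respiratory chain genes past the threshold stayed within 1.5 times the reported one in 125 of 136 alternatives. Medians moved by less than the spread between replicates (0.45) in 128 of 136. Several alternatives could not move a median: leaving out a slide 1 array kept the FoxA2-Cre one at 0.20, as did array weights and the replicate block. The spread is also wider than most reported medians, so a change from 0.20 to −0.17 with quantile scaling counted as unmoved. Of 1427 alternatives for single genes, 1399 kept direction and side of the threshold. In the FoxA2-Cre comparison the 1 gene became 0 with array weights, with those 4 arrays alone, and with slide column or slide row as a block; leaving out 1 array gave 1 to 3, and 61 to 559 genes in all against 173 (106 with the replicate block, which kept Cox4i1 at adjusted p = 0.0236, limma; 102 with array weights; 111 with normexp; 71 without shared probes; 0 with slide blocks or those 4 arrays alone). Leaving out 1 array gave 0 to 6 genes for R26Y hybrids against pooled unfused cells, 0 to 5 for GFAP-Cre against R26Y hybrids, and 0 to 1 for the difference between recipient sets, where the authors' matrix gave 1. That last test called 31 genes in all, 55 with the authors' matrix, 9 with quantile scaling, 10 without shared probes, 0 with the replicate or slide blocks, and 0 to 157 without 1 array. The replicate numbers do not pair the samples, and the replicate block changed no call among the 80 respiratory chain genes. Signs turned for Cox6a2 with normexp (0.23 in FoxA2-Cre, 0.32 between sets), Atp5d with normexp (0.13 between sets), and Atp5g3 in GFAP-Cre against R26Y hybrids, where it is at background (0.39 as reported; −0.26 normexp, −0.23 quantile, −0.11 authors' matrix, −0.10 slide column, −0.72 to 1.50 leaving out 1 array). Leaving out 1 array also gave −3.42 to 0.13 for Atp5b and −3.85 to 0.088 for Cox6b1 in GFAP-Cre against R26Y hybrids, −0.18 to 1.45 for Cox4i1 in GFAP-Cre hybrids, and −0.089 to 3.10 for Atp5g2 and −0.079 to 2.54 for Cox8b in R26Y hybrids. The causes were not tested. Signal over background limits the FoxA2-Cre values: 24 of the 80 genes were above background on none of those 4 arrays.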
